A study of Mus musculus with 14 samples.

Results

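The Pax genes encode 9 transcription factors of the mouse that share a DNA-binding paired domain. Their names, Pax1 to Pax9, were looked up in lists of regions whose chromatin accessibility differed between groups of erythro-myeloid progenitors, yolk sac cells that form red and myeloid cells. Of the 9 genes, 7 had at least 1 listed region, with 23 regions between them, out of 6687 genes and 9954 regions in all lists. For scale, the reference used here held 21900 protein-coding genes, and not all of the 6687 listed genes are among them. Shares of protein-coding genes are given below for each comparison. Pax1 and Pax4 had none.

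Pax factors act early in organ formation, where they fix the identity of precursor cells in the nervous system, somites, eye, kidney, thyroid, pancreas and pharynx. Of the family, Pax5 is the member with a known place in blood, as the factor that commits lymphoid precursors to the B cell fate. In cell types that do not use them, Pax genes are textbook targets of Polycomb repressive complex PRC2, in which Ezh2 methylates histone H3 at lysine 27.

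The assay was ATAC-seq (the transposase Tn5 cuts open DNA and tags it with adapters), done on 500 sorted progenitors per sample from yolk sacs at stage E10.5. All embryos were C57BL/6 and carried Ezh2fl/fl alleles. The 3 Tie2 WT samples lacked the Tie2-Cre transgene and the 5 Tie2 KO samples carried it (Tie2-CreTg/+), a driver active in endothelium and so in the blood cells that arise from it. The 3 Vav KO samples carried Vav-CreTg/+, a driver active in blood cells. Another 3 samples, Vav WT, are in no list, so Vav KO was set against Tie2 WT, and Cre line and genotype cannot be told apart there. The sources used here do not say whether a sample is 1 embryo or a pool. Each entry gives 1 log2 fold change and 1 adjusted p-value from the authors and no value per sample, so the depth and the spread between samples are unknown. The lists take in only regions over a gene start or up to 5 kb upstream of one, with an absolute log2 fold change of at least 0.58. Coordinates are in mm10. No region was listed for Ezh2 itself, so the lists hold no check of the deletion.

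In Tie2 KO against Tie2 WT, accessibility was higher near 6 of the 9 Pax genes (Pax2, Pax3, Pax5, Pax7, Pax8 and Pax9) and lower near 0. Among all 21900 protein-coding genes of the reference table, the share with a higher region was 11.5% and with a lower region 2.51% in that comparison. For Tie2 KO against Vav KO, higher regions again lay near 6 Pax genes, with Pax6 in and Pax9 out, and lower ones near 0, beside 11.1% and 6.35% of protein-coding genes. For Vav KO against Tie2 WT, 1 Pax gene had a higher region (Pax9) and 1 a lower region (Pax6), beside 5.29% and 2.59%. Both comparisons of Tie2 KO use the same Tie2 KO samples, and both comparisons with Tie2 WT the same Tie2 WT samples, so none of them repeats another independently.

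**Figure D1:**
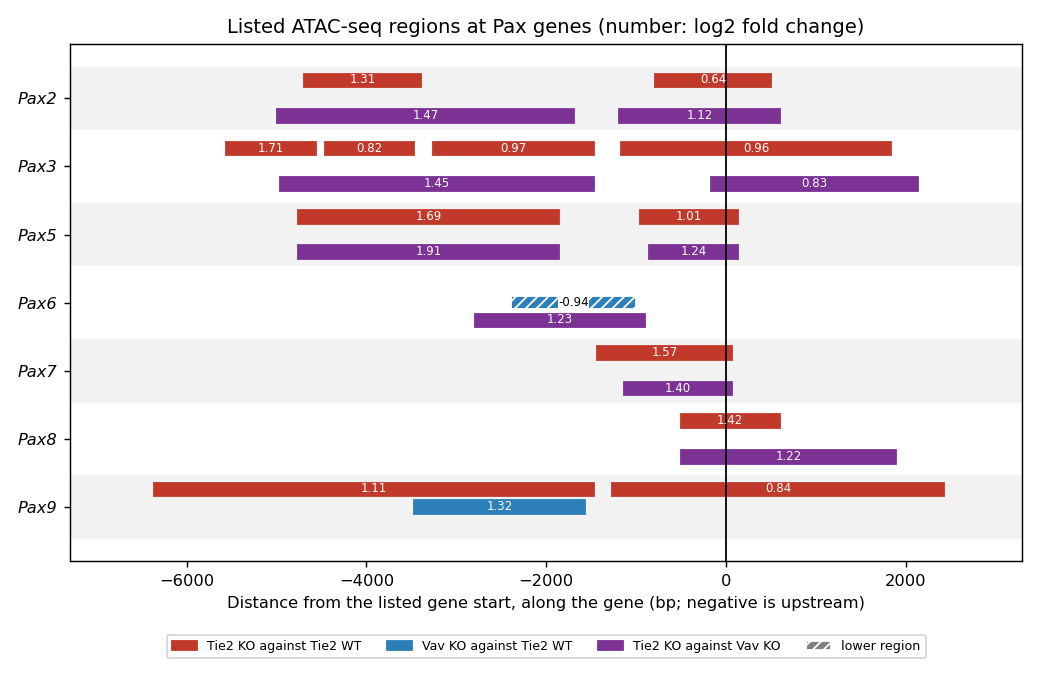
Each bar is a listed region, placed by its distance in bp from the gene start given in the lists (vertical line, with upstream to the left) and coloured by comparison, and the number on it is its log2 fold change. Regions of Tie2 KO against Tie2 WT and of Tie2 KO against Vav KO lie side by side at Pax2, Pax3, Pax5, Pax7 and Pax8, while the only bar of a lower region (hatched) is upstream of Pax6.

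Promoter sequence was examined because 6 of the 12 regions higher in Tie2 KO than Tie2 WT covered the start of their Pax gene. RefSeq sequence of build GRCm38.p6, the assembly also called mm10, held 10 start sites for 7 Pax genes, with no entry for Pax3 and Pax4. In the 250 bases before each start, the windows of Pax2 (the last of its 3 starts), Pax5, Pax7, Pax8 and Pax9 lay wholly inside a region higher in Tie2 KO than Tie2 WT. That was true of 5.18% of 21263 such windows of protein-coding genes. All of these windows except that of Pax9 also lay inside a region higher in Tie2 KO than in Vav KO. Printed here are the windows of Pax5 and Pax8, which lay inside such regions in both comparisons, and that of Pax6 at its first start, which no listed region touched in any comparison. These 3 lie outside the transcribed span of their gene in the table. Capitals mark CpG dinucleotides, the sites of DNA methylation, whose clusters are known to recruit Polycomb.
Pax5, chr4:44710695-44710944, minus strand: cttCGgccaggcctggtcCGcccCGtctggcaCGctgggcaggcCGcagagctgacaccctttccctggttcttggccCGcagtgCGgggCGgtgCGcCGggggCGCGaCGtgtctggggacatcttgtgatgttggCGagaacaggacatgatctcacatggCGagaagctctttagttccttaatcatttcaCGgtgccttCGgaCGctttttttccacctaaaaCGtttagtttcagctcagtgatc
Pax8, chr2:24475600-24475849, minus strand: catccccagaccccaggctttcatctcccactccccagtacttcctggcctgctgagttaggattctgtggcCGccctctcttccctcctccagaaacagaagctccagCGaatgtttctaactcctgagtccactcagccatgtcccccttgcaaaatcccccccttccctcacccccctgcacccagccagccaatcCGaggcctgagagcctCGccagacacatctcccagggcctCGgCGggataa
Pax6, chr2:105668646-105668895, plus strand: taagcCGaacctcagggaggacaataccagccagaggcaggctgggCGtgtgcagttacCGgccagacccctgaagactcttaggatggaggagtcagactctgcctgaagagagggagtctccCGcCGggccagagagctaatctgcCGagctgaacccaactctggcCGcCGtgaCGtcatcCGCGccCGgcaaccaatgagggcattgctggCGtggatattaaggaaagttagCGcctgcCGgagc

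The Pax5 window held 19 CpG and the Pax6 window 15, while the Pax8 window held 6. Over all protein-coding windows the median was 10 CpG, with quartiles of 3 and 19, and windows inside regions higher in Tie2 KO than Tie2 WT had a median of 14. Pax2 had the most, 25 CpG at its last start, a number reached by 13.8% of windows. Pax7 had 13 and Pax9 had 7. Windows inside a higher region thus stood on both sides of the overall median, and so did the other Pax windows. The 6-base GC box GGGCGG, searched on both strands, was present in the windows of Pax2 (last start), Pax5, Pax7 and Pax8 and absent from that of Pax9. Among the other Pax windows it was present at Pax1 and Pax2 (middle start) and absent at Pax2 (first start) and Pax6. It was present in 42.6% of all windows. CCAAT, also on both strands, was found in the windows of Pax8, Pax6 (first start) and Pax1, and in 35.4% of all windows. TATAAA on either strand was in none of the 10 Pax windows and in 11.6% of all windows.

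**Figure D2:**
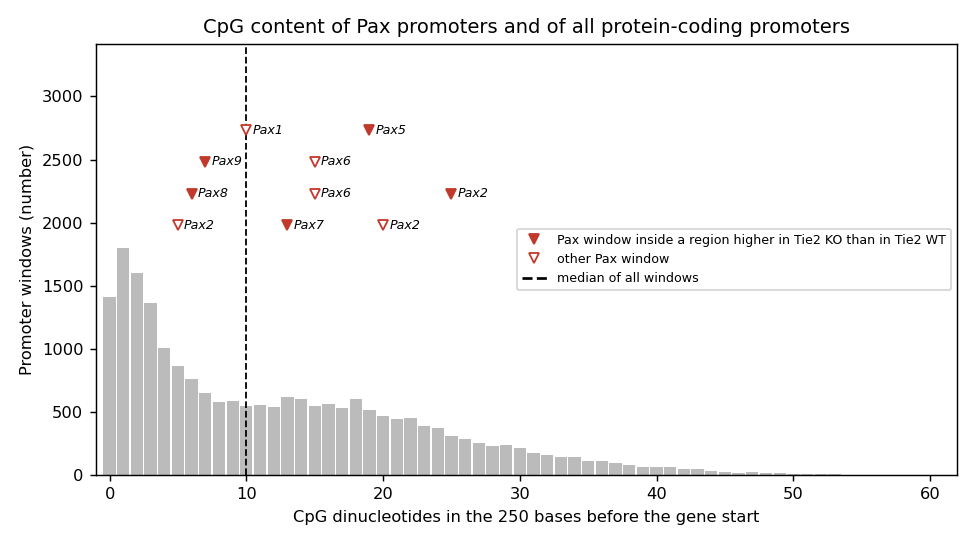
Bars count promoter windows of protein-coding genes (vertical axis) by their number of CpG dinucleotides in the 250 bases before the start (horizontal axis), and triangles place the 10 Pax windows on the horizontal axis only, filled where the window lies inside a region higher in Tie2 KO than Tie2 WT. The filled triangles range from 6 CpG at Pax8 to 25 at Pax2, on both sides of the median of 10 (dashed line).

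Pax3 and Pax7 are close relatives that mark neural crest and muscle precursors. Pax3 had 4 regions higher in Tie2 KO than Tie2 WT, the most that any gene had in that list, shared by 3 genes with Pax3 among them. One covered the start (chr1:78195302-78198300), with a log2 fold change of 0.96 and an adjusted p of 1.61e-06 per the authors' deposited table. Going upstream, the others began 1465, 3465 and 4565 bp from the start, with log2 fold changes of 0.97, 0.82 and 1.71 per the authors' deposited table. Together they covered 6796 of 7399 bp, with gaps of 101 to 301 bp, so the Pax3 promoter and its upstream flank were higher almost without a break. The farthest region (chr1:78201702-78202700) had the largest fold change of any Pax region in this comparison, an adjusted p of 0.000255, and only 999 bp, the smallest width in the list. In Tie2 KO against Vav KO, Pax3 had 2 higher regions per the authors' deposited table, one over the start at 0.83 (adjusted p = 1.11e-06) and one of 3499 bp upstream at 1.45 (adjusted p = 0.000106). In both comparisons the fold change was thus smaller at the start than at the strongest upstream region.

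Pax7, which maintains muscle stem cells, had 1 region over its start in each of the same comparisons. For Tie2 KO against Tie2 WT it ran over chr4:139832902-139834400, with a log2 fold change of 1.57 and an adjusted p of 0.00188 per the authors' deposited table. Against Vav KO the value was 1.40 (adjusted p = 7.34e-05) over chr4:139832902-139834100 per the authors' deposited table. Both regions share the edge at 139832902 and hold nearly all their length upstream of the gene start that the lists give. The RefSeq gene reaches farther, to 139833530, so a part of both regions lies inside the gene in that table. Neither Pax3 nor Pax7 was listed in Vav KO against Tie2 WT, where 5.29% of protein-coding genes had a higher and 2.59% a lower region.

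Pax2, Pax5 and Pax8 form a second group of relatives, which act together at the midbrain-hindbrain border. Pax2 and Pax8 are also needed for the kidney, and Pax8 for the thyroid. All 3 were near a higher region in Tie2 KO against Tie2 WT and in Tie2 KO against Vav KO, beside 11.5% and 11.1% of protein-coding genes. In Vav KO against Tie2 WT 0 of 3 were listed, where few protein-coding genes were, 5.29% as higher and 2.59% as lower.

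Pax5, the B cell factor, had the largest fold changes of this group. Its upstream region (chr4:44712302-44715200), 1861 bp from the start, had the same edges in both lists. The log2 fold change there was 1.69 against Tie2 WT (adjusted p = 2.18e-07) and 1.91 against Vav KO (adjusted p = 1.49e-05) per the authors' deposited table. In the first list 93.6% of higher regions, and in the second 89.8%, had a fold change as small or smaller. Over the start itself, values were lower, at 1.01 (adjusted p = 0.000199) and 1.24 (adjusted p = 0.000617) per the authors' deposited table. A further region inside the Pax5 gene (chr4:44701302-44702700) was higher in Tie2 KO than in Vav KO by 1.77 (adjusted p = 0.00238) per the authors' deposited table, where it is paired with 5730488B01Rik. In the comparison of the knockouts, Pax5 thus had higher regions at its start, upstream of it and within it.

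Pax2 had a region over its listed start and one upstream of it with a larger fold change. The RefSeq gene begins earlier, at 44746601, so the upstream region lies inside the gene in that table. Against Tie2 WT, the region over the start (chr19:44756602-44757900) had a log2 fold change of 0.64 (adjusted p = 0.00404), the smallest of any Pax region and close to the smallest the list takes in, per the authors' deposited table. The upstream one (chr19:44752702-44754000) had 1.31 (adjusted p = 0.00782) per the authors' deposited table. These 2 adjusted p-values were among the largest in that list, 97.6% and 98.7% of whose regions had one as small or smaller. Against Vav KO both regions were wider, at 1799 and 3299 bp, with log2 fold changes of 1.12 (adjusted p = 0.000162) and 1.47 (adjusted p = 6.62e-07) per the authors' deposited table. At the far end of the Pax2 gene, 2 regions paired with 1700039E22Rik were also higher in Tie2 KO than Tie2 WT, by 0.65 and 1.49 per the authors' deposited table.

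Pax8 had a single region over its start in each list. It spanned 1099 bp against Tie2 WT (chr2:24475002-24476100), with a log2 fold change of 1.42 and an adjusted p of 0.000128 per the authors' deposited table. Against Vav KO it spanned 2399 bp and reached farther into the gene, with 1.22 (adjusted p = 5.25e-06) per the authors' deposited table. The printed Pax8 promoter, poor in CpG, lies within both.

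**Figure D3:**
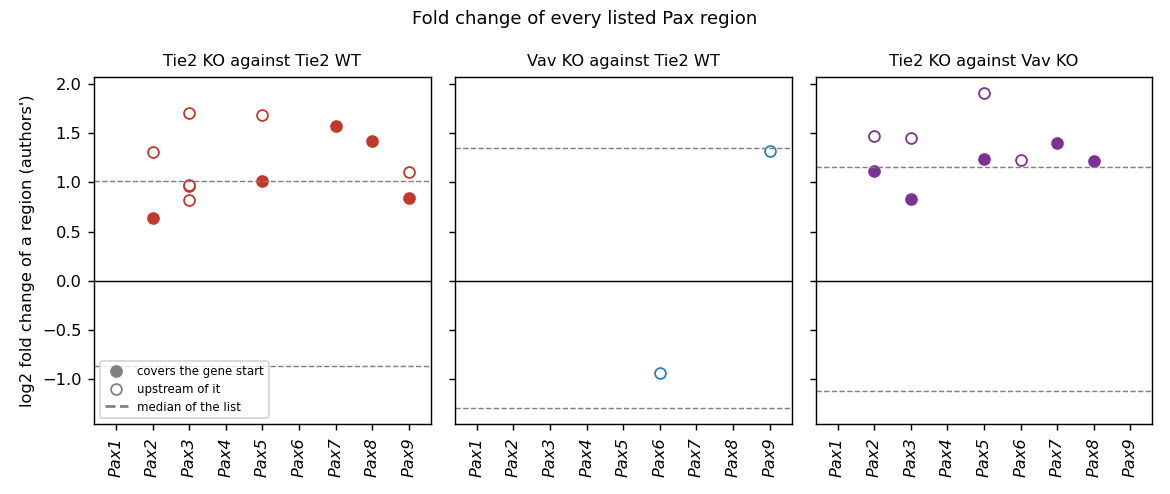
Each point is a listed region of the Pax gene on the horizontal axis, at its log2 fold change on the vertical axis, filled where the region covers the gene start and open where it lies upstream, with 1 panel per comparison and the medians of the higher and lower lists as dashed lines. At Pax2, Pax3, Pax5 and Pax9 in the left panel and at Pax2, Pax3 and Pax5 in the right one, at least 1 open point stands above the filled one.

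Pax9 and Pax1 pattern the vertebral column and the pharyngeal pouches, from which thymus and parathyroid arise. Pax9 was listed as higher in each knockout against the shared Tie2 WT samples. In Tie2 KO, a region of 4899 bp upstream (chr12:56689102-56694000) had a log2 fold change of 1.11 (adjusted p = 1.62e-06) and one of 3699 bp over the start had 0.84 (adjusted p = 3.82e-06) per the authors' deposited table. They covered 8598 of 8799 bp, and 98.7% of higher regions in that list were as wide as the first or narrower. In Vav KO, the upstream part alone was listed (chr12:56692002-56693900, inside the Tie2 KO region), at 1.32 with an adjusted p of 1.9e-05 per the authors' deposited table. Pax9 had no region in Tie2 KO against Vav KO, which does not show that the knockouts were alike there. The RefSeq gene begins at 56691693, so part of this upstream stretch is transcribed from an earlier start in that table. Nkx2-9, a homeobox gene within 100 kb of it, had higher regions over its start at 1.32 in Tie2 KO against Tie2 WT and at 1.48 against Vav KO per the authors' deposited table.

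Pax1 had no region of its own, but regions inside its gene are listed for AI646519. One of 1499 bp (chr2:147367502-147369000) was higher in Tie2 KO than Tie2 WT, with a log2 fold change of 1.11 and an adjusted p of 0.00267 per the authors' deposited table. Another of 999 bp (chr2:147365102-147366100) was higher in Tie2 KO than in Vav KO by 1.00 (adjusted p = 0.000147) per the authors' deposited table. It begins 108 bp after 147364994, the Pax1 start used for the promoter window. The RefSeq gene as a whole begins earlier, at 147361930, so this region lies farther inside it. The lists pair a region with a gene whose start, as the lists place it, the region overlaps or precedes.

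Pax6 and Pax4 are the remaining pair. Pax6 is the master regulator of the eye and acts in brain and pancreas, and Pax4 directs precursors of insulin-producing cells. Pax6 was the only Pax gene near a lower region. In Vav KO against Tie2 WT the region chr2:105666502-105667900, 995 bp upstream, had a log2 fold change of -0.94 with an adjusted p of 0.0137 per the authors' deposited table. A region that contains it (chr2:105666102-105668000) was higher in Tie2 KO than in Vav KO by 1.23 (adjusted p = 1.08e-05) per the authors' deposited table. Pax6 itself was not listed in Tie2 KO against Tie2 WT. The second of these regions is also paired with Paupar, a noncoding RNA gene beside Pax6, and it is the only Pax region shared with another gene. Within the Pax6 gene, a region paired with Pax6os1 was higher in Tie2 KO than Tie2 WT by 0.59 (adjusted p = 2.31e-05) per the authors' deposited table. Pax4 had no listed region in or upstream of it, and the nearest one was 14234 bp away, over the start of Fscn3, at -2.01 in Vav KO against Tie2 WT per the authors' deposited table.

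Counting regions inside the gene too, whatever gene they are paired with, 8 of 9 Pax genes (all but Pax4) had a higher region in Tie2 KO against Tie2 WT, beside 12.9% of protein-coding genes. Pax6 entered only through the region paired with Pax6os1, whose log2 fold change of 0.59 is the smallest in that list. In Tie2 KO against Vav KO the count was 7, all but Pax4 and Pax9, beside 12.8%. This count was added after the loci had been seen, and a long gene has more room to hold a region.

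Set beside all regions of the same lists, the Pax regions had similar medians of fold change. The 12 regions higher in Tie2 KO than Tie2 WT had a median log2 fold change of 1.06 per the authors' deposited table, against 1.02 for all 2959, and 6 of 12 (all regions: 55.6%) covered a gene start. Their median width was 1399 bp against 1599 bp. The 9 regions higher in Tie2 KO than in Vav KO had a median of 1.24 against 1.16 for all 2873 per the authors' deposited table, a median width of 2299 against 1299 bp, and 5 of 9 covered a start (all regions: 43.8%). With each gene taken at its strongest region, the median log2 fold change over 6 Pax genes was 1.495 against 1.04 over all genes in the first list, and 1.425 against 1.17 in the other. A gene with more regions has more chances of a large value, and in the first list 4 of these 6 Pax genes had 2 or more regions, while 2512 genes had 1 and 293 had 2. These are descriptions without a test, and regions of 1 gene share their locus.

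**Figure D4:**
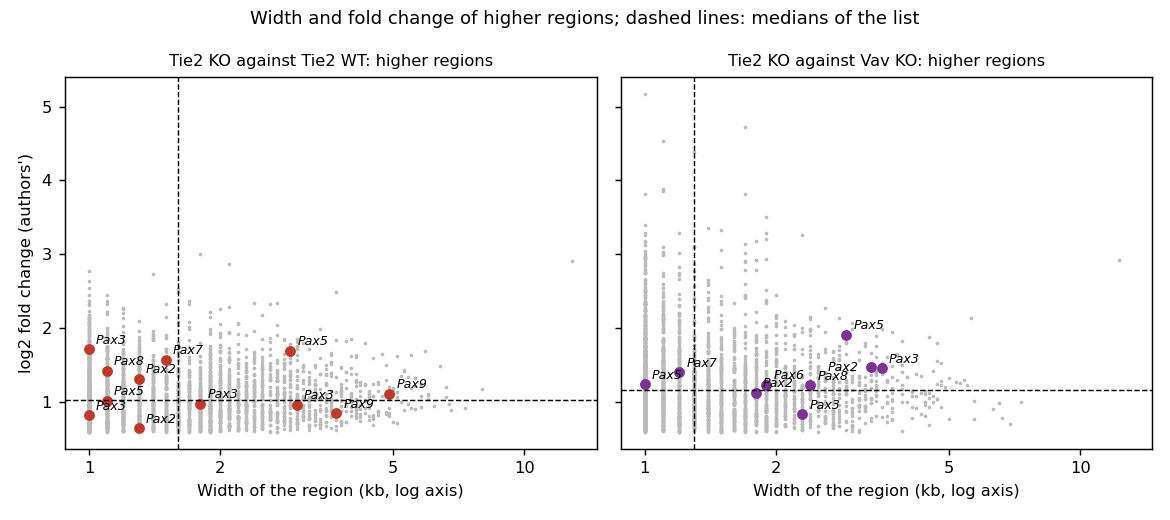
Each point is a region higher in Tie2 KO than Tie2 WT (left) or than in Vav KO (right), by its width in kb (logarithmic axis) and its log2 fold change, with Pax regions named and the medians of the list dashed. Pax regions lie within the cloud of all regions, with log2 fold changes of 0.64 to 1.71 on the left and 0.83 to 1.91 on the right.

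Genes with which Pax factors act were taken from 7 lists, 108 genes in all. For Tie2 KO against Tie2 WT, 49 of them (45.4%) had a higher region and 2 (1.85%) a lower one, against 11.5% and 2.51% of protein-coding genes. In Vav KO against Tie2 WT, 6 (5.56%) had a higher and 1 (0.926%) a lower region, against 5.29% and 2.59%. In Tie2 KO against Vav KO the counts were 50 (46.3%) and 7 (6.48%), with 3 genes listed in both directions, against 11.1% and 6.35%.

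The kidney, thyroid and midbrain-hindbrain genes linked to Pax2 and Pax8 had 14 of 18 members near a higher region in Tie2 KO against Tie2 WT and 0 near a lower one. In Vav KO against Tie2 WT 0 of 18 were listed, beside 5.29% of protein-coding genes with a higher and 2.59% with a lower region. En1, a homeobox gene of the midbrain-hindbrain border, had a log2 fold change of 1.54, and the kidney regulators Lhx1 and Sall1 had 1.51 each per the authors' deposited table. Against Vav KO, 12 of 18 were near a higher region, led by En1 at 2.39, Wt1 at 1.72 and Nkx2-1 at 1.52 per the authors' deposited table.

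Of sclerotome and pharyngeal genes linked to Pax1 and Pax9, 10 of 16 were near a higher region in Tie2 KO against Tie2 WT and 0 near a lower one. The somite factors Meox2 and Meox1 stood at 1.69 and 1.61 per the authors' deposited table. This list had the most members near a region in Vav KO against Tie2 WT, 3 of 16, all higher, beside 5.29% of protein-coding genes. They were Foxc2 at 1.13, Foxc1 at 0.95 and Tbx18 at 0.81 per the authors' deposited table. That count fell to 1 with a log2 fold change of at least 1, and to 1 with regions over the start alone. For Tie2 KO against Vav KO, 10 lay near higher regions and 2 near lower ones, with 1 gene near both. Nkx3-2 and Tbx18 stood at 1.80 and 1.55 per the authors' deposited table.

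Eye and islet genes linked to Pax6 and Pax4 numbered 10 of 22 near a higher region in Tie2 KO against Tie2 WT and 0 near a lower one. The endocrine pancreas regulators Neurog3, Pdx1 and Neurod1 had log2 fold changes of 1.64, 1.45 and 1.42 per the authors' deposited table. Against Vav KO, 15 of 22 were near a higher region, with Pdx1 at 2.13 and Neurog3 at 1.52, and the lens factor Foxe3 listed in both directions, the lower at -1.94 per the authors' deposited table. In Vav KO against Tie2 WT, Nkx2-2 was the only member listed, at 1.21 per the authors' deposited table.

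Partners of the retinal determination network, which include the Eya and Dach genes, numbered 6 of 12 near a higher region in each comparison of Tie2 KO, and 0 near a lower one. Six2 and Six3 had 1.43 and 1.20 against Tie2 WT, and Six6, Six3 and Six4 had 3.01, 1.64 and 1.5 against Vav KO per the authors' deposited table. Six2 was also higher in Vav KO than in Tie2 WT, at 1.34 per the authors' deposited table. Muscle and neural crest genes linked to Pax3 and Pax7 numbered 6 of 15 near a higher region in each comparison of Tie2 KO. Tfap2a, a neural crest factor, had 1.54, Myod1, which drives muscle differentiation, 1.45, and Msx2 1.42 against Tie2 WT per the authors' deposited table. Against Vav KO, Myod1 had 1.58 and Tfap2a 1.57, and Met, the receptor that guides migrating muscle precursors, was listed in both directions, the lower at -1.78 per the authors' deposited table. Foxd3 was lower in Vav KO than in Tie2 WT, at -1.87 per the authors' deposited table.

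Of 15 B cell genes linked to Pax5, 2 were near a higher region in Tie2 KO against Tie2 WT, Ikzf3 at 1.09 and Ebf1 at 1.08, and 1 near a lower one, the B cell receptor component Cd79b at -0.61, per the authors' deposited table. These counts are near the shares over all protein-coding genes. Against Vav KO, Ebf1 was higher at 1.28, while Rag2 and Cd79b were lower at -1.87 and -1.05 per the authors' deposited table. Of 10 cofactors that bind Pax proteins, 1 was near a higher region in Tie2 KO against Tie2 WT, the corepressor gene Tle2 at 0.83, and 1 near a lower one, the H3K27 demethylase gene Kdm6a at -0.79, per the authors' deposited table. Tle2 was also higher in Vav KO than in Tie2 WT, at 1.09, and Pagr1a was lower in Tie2 KO than in Vav KO, at -1.40, per the authors' deposited table.

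**Figure D5:**
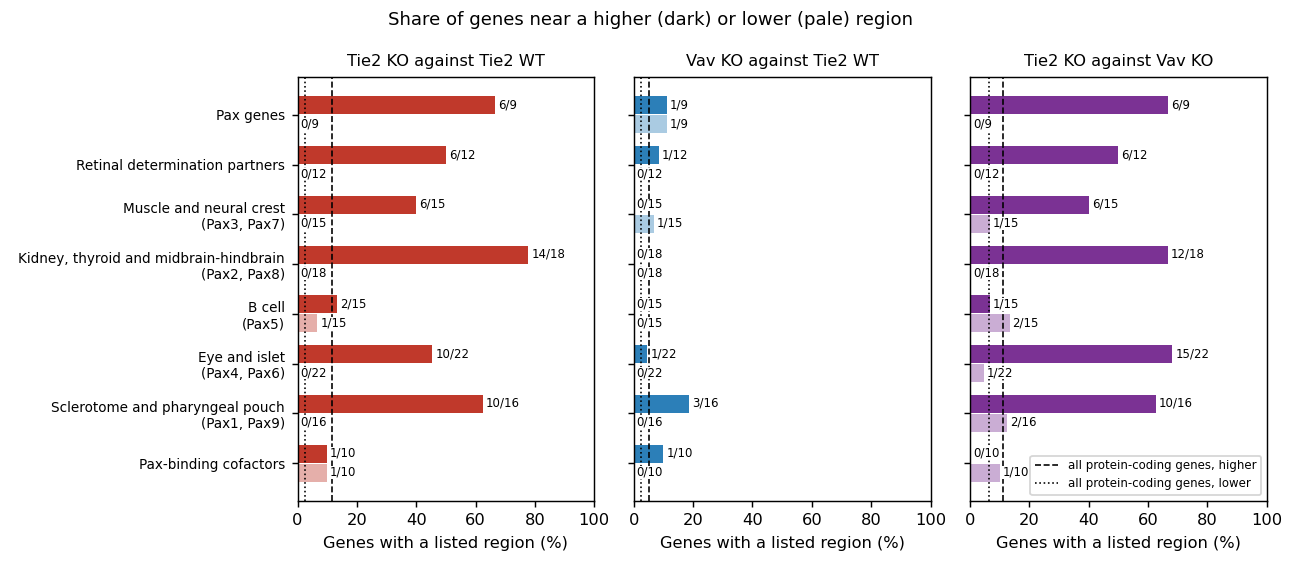
Bars give the percent of each gene list near a higher (dark) or lower (pale) region in the 3 comparisons, with counts at the bars and the shares of all protein-coding genes as dashed (higher) and dotted (lower) lines. In both comparisons of Tie2 KO the Pax genes, at 6 of 9, and 5 of the 7 linked lists stand well past the dashed line, while the B cell and cofactor lists stay near or under it.

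By strongest log2 fold change in each of the 3 comparisons, with 0 where a gene was not listed, the genes most like Pax3 were Gap43 (1.71 against Tie2 WT and 1.43 against Vav KO, Euclidean distance 0.020), B230323A14Rik (1.75 and 1.40, distance 0.064) and Lingo4 (1.74 and 1.39, distance 0.0671) per the authors' deposited table. None of these 3 was listed in Vav KO against Tie2 WT, which the choice itself fixed. Pax3 counted as 0 there, and any listed gene would differ from it by at least 0.58.

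Markers of cell types that a yolk sac sort could hold were looked up in the same lists. Of 13 erythro-myeloid progenitor markers, 0 were near a region in Tie2 KO against Tie2 WT. Of 9 markers of mesoderm and mesothelium, 7 were near a higher region there and 0 near a lower one, led by Hand1 at 1.59 per the authors' deposited table, and Wt1 stands in this list and in the kidney list. Endothelial markers numbered 4 higher (Cdh5, Cldn5, Flt1 and Tek) and 1 lower (Pecam1) of 9. Visceral endoderm markers numbered 2 higher and 0 lower of 8, beside 11.5% and 2.51% of protein-coding genes. Among the endothelial markers, Tek had a region of 12899 bp at 2.90 (adjusted p = 0.00132), while Flt1 and Cdh5 had 0.95 and 0.84, per the authors' deposited table. Tek is the gene also called Tie2, whose promoter drives the Tie2-Cre transgene that the Tie2 KO samples alone carry, so reads from the transgene and from the gene itself cannot be told apart there. Against Vav KO, Tek stood at 2.92 over 12299 bp (adjusted p = 0.000921) per the authors' deposited table. In Tie2 KO against Vav KO, higher regions lay near 5 of 9 mesoderm and mesothelium, 5 of 9 endothelial, 2 of 8 visceral endoderm and 1 of 13 progenitor markers, the last being Gata2, and lower ones near Csf1r alone, beside 11.1% and 6.35%. In Vav KO against Tie2 WT, Csf1r and Col1a2 were near higher and Gata2, Foxa2 and Pdgfra near lower regions, beside 5.29% and 2.59%. Marker and Pax regions came from the same comparisons, and with no value per sample they could not be followed together. The part of other cells in the result was not tested. Accessibility says nothing of whether a Pax gene was transcribed.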

How the data were processed

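ATAC-seq was deposited as 6 lists of regions, a higher and a lower list for each of 3 comparisons. For each region the authors deposited the log2 of a fold change, an adjusted p-value, and as other measures a width and a distance from the start of the paired gene in bp, per the file headers. The submitters' processing notes list, without roles, HOMER 4.10, MACS2 2.1.2, SAMtools 1.3.1, Bowtie2, Picard and FastQC, and the build mm10. How regions were tested, libraries scaled, Tn5 offsets shifted and duplicates removed, if at all, is not stated in any source used here. The abbreviations in the names of the lists were matched to the labels for Tie2 KO, for Tie2 WT and for Vav KO. Region edges lie on a grid of 100 bp, and the largest adjusted p is 0.0479.

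Rows were taken by gene symbol with Python 3.11.15 and pandas 2.3.3. The background is the share of the 21900 protein-coding RefSeq genes (GRCm38.p6) with a listed region, some of which may not have been tested upstream. No test was run here, since the lists hold no value per sample, and counting was tested on small tables with known answers. The members and lists were chosen with earlier results of these data known. Named genes are the 9 Pax genes, genes sharing a Pax region, the members of each list that changed most in a comparison (3 at most), and the 3 genes most like the Pax gene with the most regions. Single cell type markers and the genes beside Pax loci, other than Paupar, were named outside that rule, after their values were seen. Some members that this rule names are not reported here. Protein sequences were not used here.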

Additional observations from a re-analysis of the deposited data

Results flagged for a closer look

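Setting Tie2 KO directly against Vav KO is a contrast, by the authors, between the knockout groups themselves. It does not measure a difference between knockout effects, since Vav WT, the control of the Vav line, is in no list. It called 6 Pax genes, all higher in Tie2 KO, beside 11.1% of protein-coding genes with a higher region. In the authors' deposited table the strongest region had a log2 fold change of 1.91 at Pax5 (adjusted p = 1.49e-05), 1.47 at Pax2 (adjusted p = 6.62e-07) and 1.45 at Pax3 (adjusted p = 0.000106). The values were 1.40 at Pax7 (adjusted p = 7.34e-05), 1.23 at Pax6 (adjusted p = 1.08e-05) and 1.22 at Pax8 (adjusted p = 5.25e-06) per the authors' deposited table. At Pax6 the region was also called lower in Vav KO than in Tie2 WT, while at the other 5 genes neither direction was called there. Tie2 KO had 5 samples and Vav KO 3, and each driver came with its own mouse line, so driver and line cannot be told apart.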

How the results depend on the processing

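The counts of Pax genes near higher regions in Tie2 KO stayed at 6 against Tie2 WT under the stricter adjusted p of 0.01, the log2 fold change of at least 1, the limits to regions over the start or within 2 kb of it, and matching by gene identifier. Beside that, 11.5% of protein-coding genes had a higher region at the stricter adjusted p and 6.21% at the larger fold change. Over the start the share was 7.1%, and 9.98% with regions within 2 kb. The stricter adjusted p left the share at 11.5%, so it hardly tests the count. Against Vav KO the counts near higher regions were 6, or 5 with regions over the start alone. The shares there, in the same order, were 10.9%, 7.23%, 5.42% and 9.24%. Counts near lower regions stayed at 0 in both, which a stricter setting cannot change. In Vav KO against Tie2 WT, the higher count of 1 went to 0 with regions over the start alone, beside 0.881% of protein-coding genes. The lower count of 1 went to 0 under the stricter adjusted p, under the larger fold change and with regions over the start alone, so the Pax6 call there is the least firm. Shares of protein-coding genes with a lower region under those settings were 2.54%, 1.89% and 0.411%. Taking genes near any listed region as background, 42.4% lay near a higher region in Tie2 KO against Tie2 WT and 41.2% against Vav KO. With the region nearest to the start in place of the strongest, log2 fold changes against Tie2 WT were 0.64 at Pax2, 0.96 at Pax3 and 1.01 at Pax5. Against Vav KO they were 0.83 at Pax3 and 1.24 at Pax5. The sign could not change, since no Pax gene had both a higher and a lower region in the same comparison. Of 126 alternative counts of linked lists, 19 moved by over 1.5 times. Many of the 126 could not move, since a main count of 0 stays at 0 under any stricter setting. All moves came from the larger fold change or from regions over the start alone, and none from the stricter adjusted p. The 126 are thus no measure of how stable the counts are. No paired analysis was possible because the lists hold no value per sample. For the same reason no sample could be left out, and depth is unknown.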
